A study of Anas platyrhynchos with 2 samples.

Results

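The miRNAs miR-101 and miR-26a were followed through small RNA libraries of the duck duodenum. Members were the rows of the mature miRNA table whose name, once the arm and copy suffixes were removed, read miR-101 or miR-26a, which gave 5 of 288 rows: gga-miR-101-3p, gga-miR-101-1-5p, gga-miR-101-2-5p, gga-miR-26a-5p and gga-miR-26a-3p, where gga marks the chicken names that the table uses and is dropped below. The rule used names only, although it was proposed with earlier results of these data known. The table came from female Jingjiang ducks, a domestic breed, sampled at 1 day of age. The control ducks were boxed but not carried, and the transported ducks, described in the labels as having a damaged duodenal mucosa, were driven for 8 h at 40 to 70 km per h. The study used 20 ducks in all, each group has 1 library, and the sources used here do not say whether a library pools several ducks.

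The libraries are named CC and CT in the table. CC was read as control and CT as transported from their last letters, which no label spells out, so directions are given only as CT against CC and would reverse relative to transport if that reading were wrong. CC held 5772509 counts and CT 5272666. Levels are in CPM, counts per 1000000 counts of the library. With a single library per group there is no replicate check and no p-value, and the exact 95% intervals reflect the error of counting alone.

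A miRNA is cut from a hairpin, and one of the hairpin's arms is usually kept in an Argonaute protein while the other is degraded. Bases 2 to 8 of the retained strand, the seed, pair with target mRNAs and lower their translation and stability. In mammals miR-101 and miR-26a each repress EZH2, the histone methyltransferase of the Polycomb repressive complex that keeps developmental genes silent, and both are linked there to differentiation and to loss in tumours. EZH2 itself was not measured in these libraries.

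The mature sequences, as the deposited table gives them under chicken names, are shown first because the seed decides which miRNAs can be grouped. They run 5′ to 3′ with the seed in capitals.
miR-101-3p: gUACAGUAcugugauaacugaa
miR-101-1-5p: uCGGUUAUcaugguaccggugcu
miR-101-2-5p: uCAGUUAUcacagugcugaugcu
miR-26a-5p: uUCAAGUAauccaggauaggc
miR-26a-3p: cCUAUUCUugguuacuugcacug
No seed was shared between the members. miR-101-1-5p and miR-101-2-5p differed at 6 of 23 positions. Both abundant arms are close in length, at 22 nt for miR-101-3p and 21 nt for miR-26a-5p, but not in their first base. miR-26a-5p begins with U, as did 130 of the 288 rows, whereas miR-101-3p is listed with a leading G, the rarest first base, found in 23 rows.

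The members lie on 3 hairpins, shown because the position of the arms bears on how the counts can be assigned. The listed arms are in capitals.
mir-101-1: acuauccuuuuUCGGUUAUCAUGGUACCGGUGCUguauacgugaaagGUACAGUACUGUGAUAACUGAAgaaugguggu
mir-101-2: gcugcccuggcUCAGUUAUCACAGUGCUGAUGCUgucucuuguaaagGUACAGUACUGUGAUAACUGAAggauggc
mir-26a: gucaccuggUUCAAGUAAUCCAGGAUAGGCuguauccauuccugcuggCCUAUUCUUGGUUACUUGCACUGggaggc
The miR-101-3p sequence is present in both miR-101 hairpins, at positions 48 to 69 of each, although the table lists it under mir-101-2. Its counts therefore cannot be divided between the copies, and only the 5p arms tell the copies apart. No predicted row of the table was within 5 mismatches of a member at the same register, and no predicted hairpin held a member's sequence. Folded with RNAfold, the hairpins had minimum free energies of -35.9 kcal/mol (mir-101-1), -36.3 kcal/mol (mir-101-2) and -36.6 kcal/mol (mir-26a). In these folds 20 bases of miR-101-1-5p, 21 of miR-101-2-5p and 18 of miR-26a-5p paired with the opposite listed arm. The table gives no genome position for the 3 hairpins.

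miR-26a-5p was the most abundant member in both libraries and miR-101-3p the second, and these 2 rows were the only members with at least 50 counts over both libraries. miR-26a-5p had 54106 counts in CC and 39444 in CT, or 9373 and 7481 CPM. Its share of all counts was 0.937% in CC (exact interval 0.929 to 0.945%) against 0.748% in CT (0.741 to 0.755%), at rank 10 in CC and rank 16 in CT. miR-101-3p had 14855 counts in CC and 17359 in CT, or 2573 and 3292 CPM. Of all counts it made up 0.257% in CC (0.253 to 0.262%) against 0.329% in CT (0.324 to 0.334%), at rank 30 and rank 26. Thus the more abundant of the pair stood lower in CT and the less abundant stood higher.

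The other 3 members were rare. miR-26a-3p had 11 counts in CC and 22 in CT, or 1.91 and 4.17 CPM. miR-101-2-5p had 2 counts in CC and 4 in CT, or 0.346 and 0.759 CPM. miR-101-1-5p had 0 counts in CC and 3 in CT. With 0 counts, its exact interval in CC reached 0.639 CPM, and the floor of 3 counts drawn in the figure is 0.520 CPM. Thus miR-101-1-5p was not detected at that depth rather than absent, and no ratio is given for it. The intervals of miR-101-1-5p and miR-101-2-5p overlapped in CT, and their order is not resolved.

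**Figure D1:**
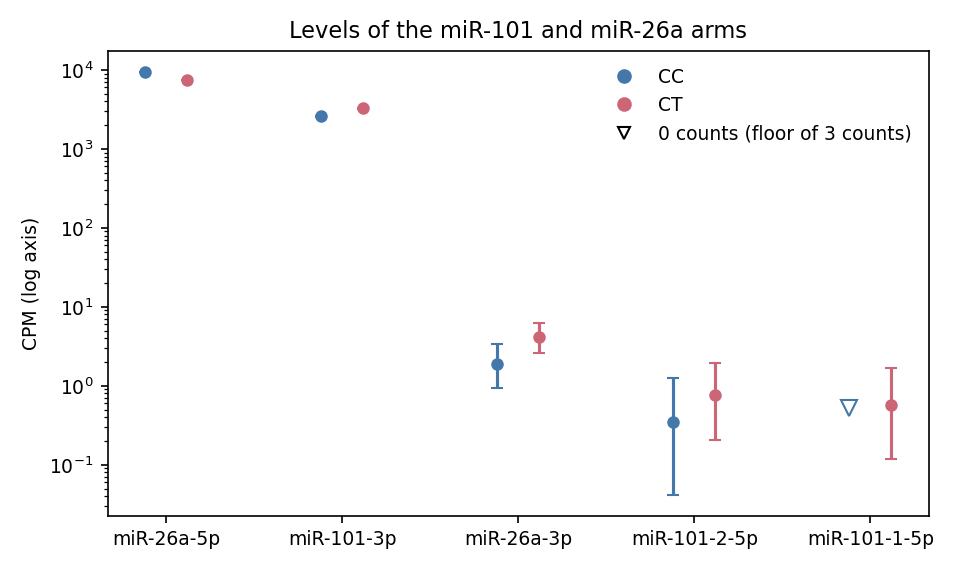
Levels of the 5 members in CPM on a log axis, CC in blue and CT in red, with exact 95% counting intervals, which are narrower than the points for the 2 abundant arms. miR-26a-5p (9373 and 7481 CPM) and miR-101-3p (2573 and 3292 CPM) lie far above the other arms, none of which exceeds 4.17 CPM, and the open triangle marks the floor for a count of 0.

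The question of the study is what differs in the duodenal miRNAs of transported ducks, and for the 2 abundant arms the libraries differed by less than 2-fold, in opposite directions. miR-101-3p was 1.28-fold higher in CT (interval 1.25 to 1.31, log2 ratio 0.36). miR-26a-5p was 1.25-fold lower in CT (1.24 to 1.27, log2 ratio -0.33). Of these 2 rows, 0 were at least 2-fold apart, against 7.38% of the 149 rows with at least 50 counts. Both intervals excluded a ratio of 1, as did those of 68.5% of the 149 rows, 34.9% with the interval above 1 and 33.6% with it below. The spread between ducks cannot be estimated from single libraries.

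The sizes were ordinary for these libraries. Over the 149 rows the median log2 ratio was 0.02, with the quartiles at -0.25 and 0.36. The ratio of miR-101-3p stood at the upper quartile, with 37 rows higher and 111 lower, and that of miR-26a-5p lay below the lower quartile, with 31 rows lower and 117 higher. Measured as distance from an equal level, 66 rows were further apart than miR-101-3p and 75 further than miR-26a-5p.

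**Figure D2:**
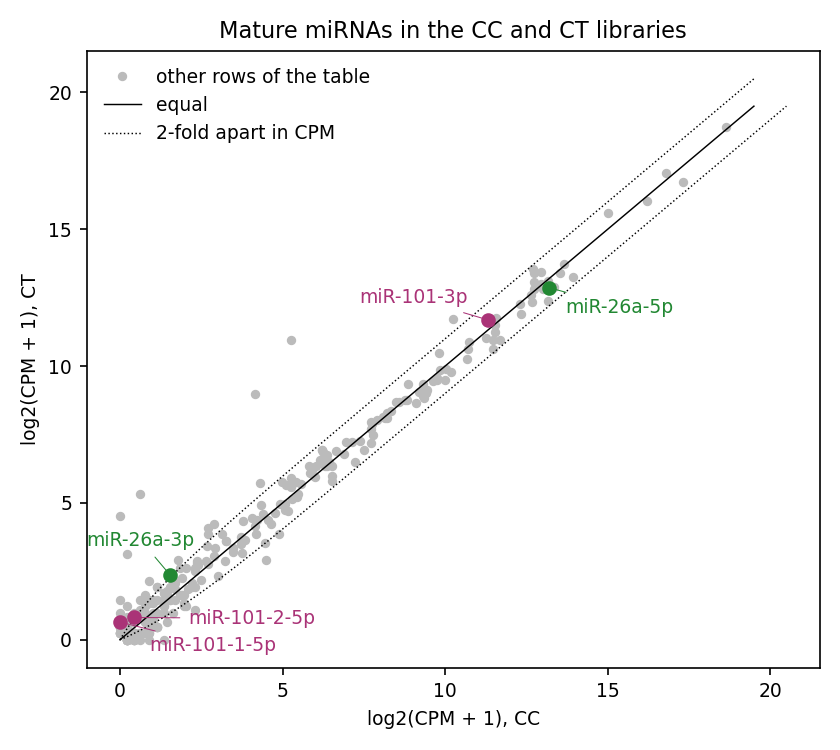
log2(CPM + 1) of every row of the table in CC (horizontal) and CT (vertical), with lines for equal levels and for 2-fold in CPM. miR-101-3p (log2 ratio 0.36) lies just above the line of equality and miR-26a-5p (-0.33) just below it, both inside the 2-fold lines, and the 3 rare arms lie at the lower left.

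Set against each other within a library, which needs no scaling between libraries, the pair shifted towards miR-101-3p in CT. There was 0.275 of a miR-101-3p count for each miR-26a-5p count in CC and 0.440 in CT. miR-101-3p made up 21.5% of the pair in CC (21.2 to 21.8%) and 30.6% in CT (30.2 to 30.9%). The ratio of miR-101-3p to miR-26a-5p was 1.60 times as high in CT as in CC (1.56 to 1.64). No other pair of rows was compared in this way, so how common such a shift is was not tested. Their summed level was 11946 CPM in CC and 10773 CPM in CT.

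Both hairpins were very one-sided, on opposite arms. In mir-101-2 the 3p arm took 99.987% of the counts in CC and 99.977% in CT. The 5p arm was thus 0.0135% of the hairpin in CC (0.00163 to 0.0486%) and 0.0230% in CT (0.00628 to 0.0590%). In mir-26a the 5p arm dominated, and the 3p arm was 0.0203% in CC (0.0101 to 0.0364%) against 0.0557% in CT (0.0349 to 0.0844%). Over both libraries this amounts to 5369 counts of miR-101-3p for each count of miR-101-2-5p and to 2835 counts of miR-26a-5p for each of miR-26a-3p. With both copies of the 5p arm joined, since miR-101-3p may come from either, the 5p share of miR-101 was 0.0135% in CC and 0.0403% in CT.

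Both were near the one-sided end of the 70 hairpins that had a row for each arm and 50 counts or more, in which the less abundant arm had a median share of 0.612%. With the libraries summed, mir-101-2 was at place 7 and mir-26a at place 11 from the most one-sided. Hairpins without a row for each arm were left out, among them that of miR-148a-3p, with 660088 counts in CC and 715381 in CT. The places therefore hold among the 70 only. Within CC the places were 11 and 14, and within CT 10 and 12. The 3p arm dominated in 26 of the 70, and among those mir-101-2 stood at place 2 in CC and place 4 in CT. Within a library, a hairpin with 0 counts of its less abundant arm precedes both at any depth. In CC 1 such hairpin had only 32 counts, with an exact upper limit of 10.9% for that arm. The 5p arm of mir-101-2 had 2 counts in CC and 4 in CT, so neighbouring places are not resolved. With the libraries summed, the most one-sided of the 70 as listed were mir-215, of the family abundant in intestinal epithelium, mir-100 and mir-128-2. miR-128-1-5p, with 23 counts in CC and 27 in CT, is listed under another hairpin and was not counted in mir-128-2. The place of mir-128-2 thus rests on how the arms are listed. With arms joined by name, miR-101 was at place 7 and miR-26a at place 10.

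**Figure D3:**
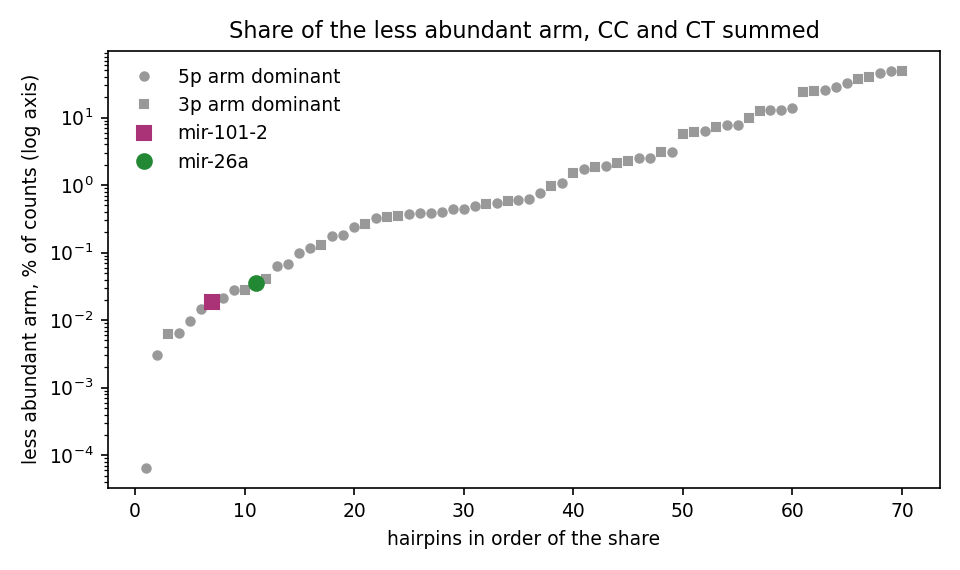
Share of the less abundant arm in percent of the hairpin's counts (log axis, CC and CT summed). The 70 hairpins with a row for each arm are shown in order. Squares mark a dominant 3p arm and circles a dominant 5p arm. mir-101-2 (place 7) and mir-26a (place 11) lie near the one-sided end, far under the median of 0.612%.

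The 3 rare members had more counts in CT although that library was shallower. Together they went from 13 counts in CC to 29 in CT, and their CPM ratio was 2.44 (1.23 to 5.12). This pool was not planned, and miR-26a-3p gave most of it, with 11 of the counts in CC and 22 in CT. The less abundant arms of all 70 hairpins summed the other way, to 28157 counts in CC and 23798 in CT. miR-26a-3p was 2.19-fold higher in CT (1.02 to 5.0), opposite in direction to miR-26a-5p, the main product of its hairpin. With TMM scaling, a trimmed-mean correction of the totals, its interval was 0.986 to 4.85 and included 1. Within the hairpin, independently of scaling, the ratio of the 3p to the 5p arm of mir-26a was 2.74 times as high in CT (1.27 to 6.27). Of the 70 hairpins, 20% had such an interval that excluded 1, 8.57% with the less abundant arm higher in CT and 11.4% with it lower. Without regard to the interval, the ratio of the less to the more abundant arm was higher in CT in 43 of the 70 and lower in 27. The same ratio for mir-101-2 was 1.71 (0.245 to 18.9), which its 2 and 4 counts do not resolve. These are counts of 22 or fewer, under the minimum of 50 used for ratios, and 139 rows of the table fell under it.

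A search of the seed of miR-101-3p in the other rows found the red blood cell miRNA miR-144-3p and the mesenchymal miRNA miR-199-3p. They are shown with the shared heptamer in capitals.
miR-101-3p: gUACAGUAcugugauaacugaa
miR-144-3p: cUACAGUAuagaugauguacuc
miR-199-3p: UACAGUAgucugcacauugg
miR-144-3p holds the heptamer at bases 2 to 8, so it has the seed of miR-101-3p as listed. In miR-199-3p it starts at base 1, and the seeds are offset by a base. For miRNAs the start of the read fixes the seed, and in mammals miR-101-3p is annotated without the leading G, which would start its heptamer at base 1. The mammalian starts of miR-144-3p and miR-199-3p were not compared, so the match of seeds is described for the starts as listed only. The table gives a single count per name, so which start the reads had was not analysed here. miR-144-3p was nearly undetected, at 9 counts in CC against 7 in CT. miR-199-3p was below miR-101-3p in both libraries, with 14208 counts (2461 CPM) in CC and 11118 counts (2109 CPM) in CT. Its log2 ratio was -0.22 (-0.26 to -0.19), opposite in direction to that of miR-101-3p. The seeds of the other 4 members at bases 2 to 8 were found in no other row at that position.

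The rows most like each abundant member in level were found by the distance of log2(CPM + 1) over both libraries. With 2 libraries this likeness is a description of levels only. For miR-101-3p the nearest was miR-92-3p, of the clusters linked to proliferation, with 2554 CPM in CC against 3221 in CT. It followed miR-101-3p directly in rank in both libraries, and its log2 ratio was 0.33 (0.30 to 0.37), against 0.36 (0.32 to 0.39) for miR-101-3p, with overlapping intervals. The next nearest were miR-30c-5p, the predicted row novel_163, miR-199-5p and miR-199-3p, with log2 ratios of 0.18, -0.04, -0.30 and -0.22. Directly above miR-101-3p stood miR-1b-3p of muscle in CC (2820 CPM) and miR-375 of endocrine cells in CT (3365 CPM).

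For miR-26a-5p the nearest rows were miR-10a-5p, encoded in a HOX cluster, miR-146c-5p, miR-27b-3p, miR-30d and let-7g-5p. Their log2 ratios were -0.46, -0.20, -0.08, 0.03 and 0.09, so that of miR-26a-5p (-0.33) lay inside their range. miR-10a-5p stood directly above it in rank in both libraries, with 10484 CPM in CC against 7623 in CT. Below it stood miR-27b-3p in CC (9255 CPM) and let-7g-5p in CT (7212 CPM). Rows within 2-fold of a member's mean level formed a band, chosen after the values were seen. In that of miR-101-3p, 12 of 13 had a lower log2 ratio than it, against 111 of the 149 rows. The exception was miR-375, and 5 of the 13 were further from an equal level. Of the 17 rows in the band of miR-26a-5p, 13 had a higher log2 ratio and 4 a lower one, against 117 and 31 of the 149 rows.

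The miRNAs reported in mammals to repress EZH2 did not all differ in the same direction. A list of 11 that includes miR-101 and miR-26a was chosen with earlier results of these data known. Of these, 8 were matched by exact name, each represented by its more abundant arm. Of the 8, 6 had at least 50 counts, with 2 higher and 4 lower in CT. Without miR-101-3p and miR-26a-5p, 1 was higher and 3 lower. Over the 149 rows, 79 were higher in CT and 70 lower. Of the 6, 1 was at least 2-fold higher and 0 lower, against 6.04% and 1.34% of the 149 rows. The list's median log2 ratio was -0.08 with or without that pair, beside 0.02 over the 149 rows. The member past 2-fold was miR-217-5p, a miRNA of pancreatic acinar cells, with 217 counts in CC and 10523 in CT (53.1-fold higher, 46.4 to 61.0). miR-214, found in mesenchymal cells, was 1.67-fold lower in CT (1.49 to 1.88), on 860 counts in CC and 469 in CT.

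The remaining members of that list differed little or were rare. let-7a-5p, of the let-7 family that promotes differentiation, was between miR-26a-5p and miR-101-3p in level, with 5077 CPM in CC against 4892 in CT and a log2 ratio of -0.05 (-0.08 to -0.03). miR-137-3p, best known from neurons, had 58 counts in CC and 49 in CT, and its log2 ratio lay between -0.69 and 0.46 by counting error. miR-138-2-3p had 15 and 11 counts and miR-144-3p 9 and 7, in CC and CT in that order, too few for a ratio under the minimum. The opposite arm, miR-138-5p, was rarer still, with 3 counts in CC and 1 in CT. Which arm of miR-138 the reports concern was not checked. miR-26b, miR-124 and miR-98 were not matched by exact name and were not analysed here. Rows with lettered miR-124 names were thus not counted, and they were rare. miR-124a-3p had 12 counts in CC and 19 in CT, miR-124c-5p 10 and 11, and miR-124c-3p 5 and 9. By level, miR-26a-5p led the list in both libraries, followed by let-7a-5p and miR-101-3p.

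**Figure D4:**
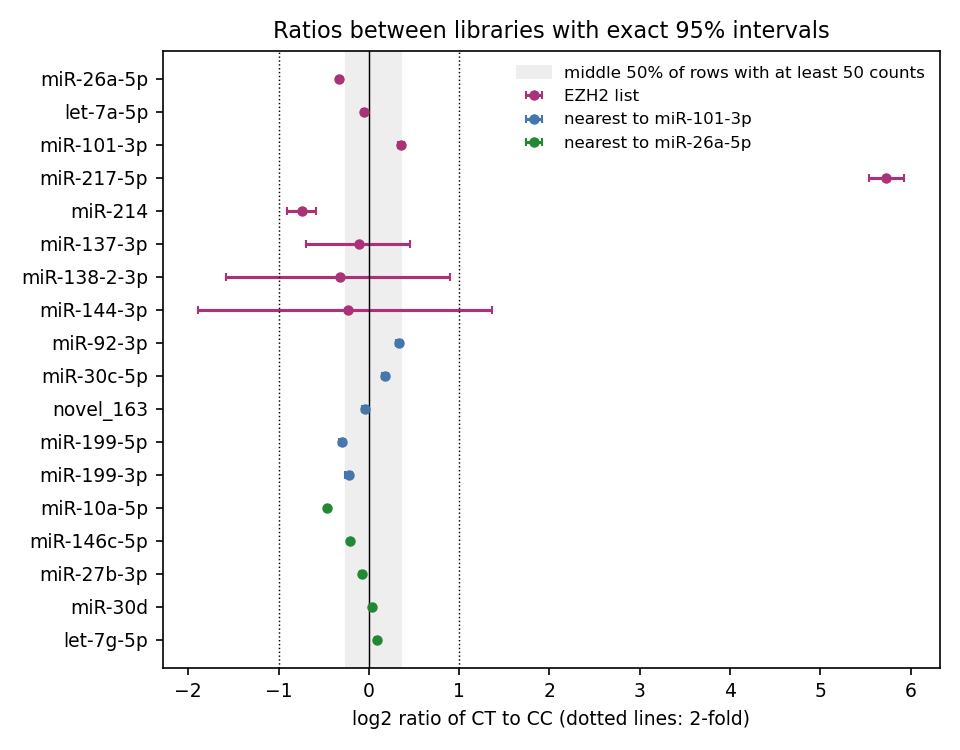
log2 ratio of CT to CC with exact 95% counting intervals. Shown are the 8 matched names reported to repress EZH2, each by its more abundant arm. The 5 rows nearest in level to miR-101-3p and to miR-26a-5p follow. The grey band spans the quartiles of the 149 rows (-0.25 to 0.36), dotted lines mark 2-fold, and miR-217-5p at 5.73 is the only point outside them.

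The libraries also differed in miRNAs of other cell types, whose part in the values of miR-101-3p and miR-26a-5p was not tested. Both are found in many cell types, and in such bulk samples fewer cells of a type and less RNA per cell cannot be told apart. The intestinal epithelial markers, of which miR-194 and miR-215 were listed and miR-192 was not matched, summed to 438810 CPM in CC against 485270 in CT. Summed levels of the 4 pancreas acinar markers were 54.9 CPM in CC and 2563 CPM in CT, with miR-216c at 0 counts in CC. The 4 of 6 muscle markers matched by name summed to 8755 and 6530 CPM, with miR-133b alone higher in CT (log2 ratio 0.41, -0.01 to 0.83), and miR-126, the endothelial marker, to 9301 and 5451 CPM. The 3 white blood cell markers summed to 128 and 145 CPM, within which miR-223 was 1.97-fold lower in CT (1.43 to 2.76) and miR-142-3p 1.26-fold higher (1.09 to 1.45). The 2 red blood cell markers were at 3.29 and 1.90 CPM and the hepatocyte marker miR-122 at 210 and 207 CPM. With 1 library per group, such differences in composition and any effect of transport cannot be told apart.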

How the data were processed

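Small RNA of 1 control and 1 transported library was measured. Per the labels' protocols, 10 µg of Trizol-extracted RNA was run on a 15% TBE-urea gel, the 20 to 30 nt range was recovered, and standard Illumina libraries were made. Not given in the sources used here are the aligner, the miRNA database and the genome build. Reads may have been assigned by chicken sequence, and a duck miRNA that differs from it can lose counts. Per the file headers, the deposited table holds read counts and TPM for 246 chicken names and 42 predicted rows. The deposited TPM values equal the count over the library total, times 1000000, within 4.31e-05, and hold no term for length, so they are called CPM.

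CC and CT were matched to the samples by their last letter only. Depth was 5772509 and 5272666 counts. Ratios have exact conditional (Clopper-Pearson) intervals and shares exact binomial ones, both for counting error only, since reads without molecular identifiers are not independent molecules. The ratio of miR-101-3p to miR-26a-5p and the arm ratios have exact conditional odds ratio intervals. The rule of size was 2-fold among rows with at least 50 counts. Arms were compared under the hairpin the table gives. No test between groups was possible. Intervals and the rule were run on simulated counts that held counting error alone. That run checks the calculation and cannot speak to the spread between ducks. Named miRNAs are the members, the EZH2 list, rows sharing a seed, the 5 nearest rows in level, rank neighbours, the 3 most one-sided hairpins and cell type markers. The members and lists were chosen with earlier results of these data known. Alternatives were TMM (edgeR 4.0.16), size factors (DESeq2 1.42.0), other totals, count minimums, a pseudocount and other rows ranked. Python 3.11.15, numpy 2.4.6, scipy 1.17.1, pandas 2.3.3, matplotlib 3.10.9, R 4.3.3 and RNAfold 2.7.2 were used.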

Additional observations from a re-analysis of the deposited data

How the results depend on the processing

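The log2 ratio of miR-101-3p was 0.31 with TMM, 0.29 with size factors, 0.41 when the 10 most abundant miRNAs were kept out of the totals and 0.26 when the predicted rows were. For miR-26a-5p it was -0.37, -0.39, -0.27 and -0.42 under the same settings in turn. The directions of both held under these settings, which shift every ratio alike, and with a pseudocount of 5 CPM. With that pseudocount the log2 ratio of miR-26a-3p was 0.41. Its interval included 1 with TMM, size factors and totals without the predicted rows, and excluded 1 with totals without the 10 most abundant. Among chicken names alone, miR-101-3p had rank 27 in CC and 24 in CT, and miR-26a-5p rank 9 and 15. The ranks with 1 row per hairpin were as reported and could not differ, since no less abundant arm ranked above either row. The median of the EZH2 list was -0.17 with no minimum beyond 1 count in each library. It was -0.13 with TMM, -0.15 with size factors and -0.11 with all arms. With no minimum beyond 1 count in each library, which leaves out miR-216c, 29 miRNAs were at least 2-fold higher and 17 lower. The numbers were 3 and 0 with a minimum of 500 counts and 22 and 11 with the 1.5-fold rule. A lower minimum admits rows whose counting error is large. TMM and size factors moved every log2 ratio by -0.045 and -0.065 in turn, those of the list and of all other rows alike. The ranks among chicken names leave out the predicted rows. The cause was not tested for the remaining changes. Summing all arms of each miRNA, chosen after seeing the data, left the ratio of miR-101 to miR-26a at 1.60 times. The rare arms add only 13 counts in CC and 29 in CT, too few to move it. No paired analysis was possible because each group has 1 library.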
